A study of Saccharomyces cerevisiae with 24 samples.

Results

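Mitochondria of budding yeast (Saccharomyces cerevisiae) build iron-sulfur clusters, small cofactors of iron and sulfide that enzymes of respiration, amino acid synthesis, DNA repair and translation need. The genes described here are ISU1, ISU2, NFS1, YFH1, YAH1, SSQ1, JAC1, GRX5, ISA1 and ISA2, chosen by name from that assembly pathway, 10 of the 7126 genes counted. All 10 passed the filter on low counts, which kept 6253 genes. Sulfur taken from cysteine by Nfs1 is joined to iron on the scaffold proteins Isu1 and Isu2, with frataxin (Yfh1) and the ferredoxin Yah1 acting in that step. The Hsp70 chaperone Ssq1 and its J-protein partner Jac1 then release the cluster towards the glutaredoxin Grx5, and Isa1 and Isa2 act later, in making the larger clusters of enzymes such as aconitase. The pathway also feeds the signal by which yeast senses its iron supply.

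RNA was sequenced from a wild type (WT) and a cnb1 mutant in the BY4741 background, a haploid laboratory strain. CNB1 encodes the regulatory subunit of calcineurin, the phosphatase that calcium and calmodulin switch on. Both strains were MATa and carried his3delta1, ura3delta0, leu2delta0 and lys2delta0, and both had the cassette HYG-TEFp-GFP(Y66F) on chromosome VI. The mutant carried cnb1delta::KanMx in addition. Cultures grew in synthetic medium with ammonium chloride as the nitrogen source. They were sampled untreated at 0 h and after 12, 48 and 72 h in 200 mM CaCl2, with dilution each 12 h that kept growth logarithmic. Each of the 8 groups had 3 libraries, 24 in all, with total counts of 18843220 to 22250806. Nothing in the labels says whether same-group libraries came from separate starting cultures, so p-values measure the spread between these libraries. No culture without CaCl2 was sampled after 0 h, so CaCl2 and time in culture cannot be told apart.

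The cnb1 label held in the counts. CNB1 had 996 to 3320 counts per WT library and 0 to 23 per mutant library. All 6 MATa-specific genes listed were detected in each group, with 2300 to 2790 CPM together at 0 h, scaled by total counts. Their median log2 change from 0 h to 72 h was -3.72 in WT and -2.04 in the mutant, beside 0.08 and 0.05 over all genes. The 4 MATalpha-specific genes together had 36.4 to 42.8 CPM at 0 h. Of these, SAG1 had 536 to 811 counts per library and STE3 had 2 to 129. The alpha-factor genes MF(ALPHA)1, which MATa cells do not use, and MF(ALPHA)2 had at most 9 and 12 counts in any library. In each strain, replicate 1 stood apart at 48 h and again at 72 h, with general stress genes (20 listed) at a mean log2 CPM of 5.86 to 6.52 against 4.37 to 5.55 in the other 48 h and 72 h libraries. Where a call on one of the 10 genes changes without these 4 libraries, both values are given. In the mutant, replicates 1 and 3 lay closer to each other than other replicates did, with a chi-square of their counts per degree of freedom of 5.39 at 0 h and 4.61 at 12 h against 15.8 to 324 for all other pairs of one group, so these replicates may not be equally independent.

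Some sequences of these genes are shown because later results refer back to them. All come from the RefSeq genome of build R64, where each of the 10 genes has 1 coding exon and overlaps no other annotated gene. In the first set, the 250 bases before the start codon are shown for NFS1, YFH1, GRX5 and ISA1, with CACCC (the core of sites bound by the iron regulators Aft1 and Aft2) and CCAAT (bound by the Hap complex of respiratory genes) in capitals on either strand.
NFS1, chrIII:94271-94520, minus strand: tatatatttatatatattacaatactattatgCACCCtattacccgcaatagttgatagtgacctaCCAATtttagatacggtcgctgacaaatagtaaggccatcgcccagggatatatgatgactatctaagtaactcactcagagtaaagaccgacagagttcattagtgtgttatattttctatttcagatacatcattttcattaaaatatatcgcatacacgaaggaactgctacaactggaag
YFH1, chrIV:245673-245922, plus strand: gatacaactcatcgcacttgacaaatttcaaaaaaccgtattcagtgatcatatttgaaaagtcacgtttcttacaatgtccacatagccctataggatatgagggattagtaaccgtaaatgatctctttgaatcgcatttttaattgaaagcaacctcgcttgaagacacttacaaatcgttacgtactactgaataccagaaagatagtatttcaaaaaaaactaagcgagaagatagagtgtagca
GRX5, chrXVI:444329-444578, plus strand: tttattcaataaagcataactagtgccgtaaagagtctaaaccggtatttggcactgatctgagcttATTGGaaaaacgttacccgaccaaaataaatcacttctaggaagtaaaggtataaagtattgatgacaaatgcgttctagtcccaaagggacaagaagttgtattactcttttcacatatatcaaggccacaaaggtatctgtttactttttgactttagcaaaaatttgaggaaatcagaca
ISA1, chrXII:87153-87402, plus strand: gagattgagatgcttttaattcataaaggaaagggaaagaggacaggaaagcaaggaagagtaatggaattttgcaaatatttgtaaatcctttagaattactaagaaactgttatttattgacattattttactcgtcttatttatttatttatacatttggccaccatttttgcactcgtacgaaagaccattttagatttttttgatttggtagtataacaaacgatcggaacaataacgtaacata

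Searched on both strands in the same window of 6020 genes, CACCC occurred in 16.3% of all windows and in 3 of the 10 (ISU1, NFS1 and ISA2). The longer form TGCACCC occurred in 1.15% of windows and, among the 10, in NFS1, where it contains the CACCC shown. CCAAT occurred in 35.4% of windows and in 5 of the 10 (ISU1, NFS1, ISA2, GRX5 and YAH1). A form of the site of the calcineurin target Crz1, GNGGCNCA, occurred in 3.01% of windows and in 0 of the 10. The stress element AGGGG occurred in 18.7% of windows and in 0 of the 10. These are matches of letters in a window, not sites shown to be bound.

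In the second set, stretches of 23 bases that follow the stop codon are shown around TATTTAT, the core of the AU-rich element through which Tis11 (also called Cth2) binds and destabilises messages of iron-using proteins in yeast. TATTTAT is in capitals. The annotation used ends each gene at its stop codon, so whether a match lies in the transcript is not known from it.
ISA1, chrXII:88210-88232, plus strand: catttactTATTTATttacatat
YFH1, chrIV:246465-246487, plus strand: ctctcttaTATTTATttaaacac
GRX5, chrXVI:445105-445127, plus strand: acgatccaTATTTATatatgcat
YAH1, chrXVI:73286-73308, minus strand: tatatataTATTTATaattataa
SSQ1, chrXII:861584-861606, plus strand: ttttgacgTATTTATactttata

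In the 250 bases after the stop codon, sense strand, TATTTAT occurred in 15.5% of 6020 windows and in the 5 of the 10 genes shown. ISA1 held 3 such matches and YFH1 held 2. The full 9-letter element TTATTTATT, which contains TATTTAT, occurred in 3.27% of windows and, among the 10, only in ISA1. TGTANATA, a form of the element bound by Puf3, which controls messages of many mitochondrial proteins, occurred in 15.1% of windows and in 4 of the 10 (ISA1, ISA2, GRX5 and JAC1).

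Before CaCl2 the scaffold genes had the most abundant messages. On the scale of deposited TPM, a level per transcript length and library size, the WT means at 0 h ran from ISU1 at 321.1 ± 6.75 (SD, n = 3) through ISU2 at 135.9 ± 3.36 and GRX5 at 110.6 ± 8.18 to YAH1 at 89.98 ± 1.66. NFS1 stood at 85.73 ± 3.30 and YFH1 at 59.3 ± 3.49. ISA1 stood at 40.08 ± 3.22 and ISA2 at 39.29 ± 3.17. SSQ1 at 8.859 ± 0.686 and JAC1 at 8.452 ± 1.31 were the lowest. Neighbours in this order whose libraries overlapped were YAH1 and NFS1, ISA1 and ISA2, and SSQ1 and JAC1. In the mutant at 0 h the 10 genes stood in the same order. ISU1 and ISU2 held the first 2 places in all 8 groups. At 72 h GRX5 had moved from place 3 to place 6 in WT and to place 5 in the mutant, and YFH1 from place 6 to place 8 in both. ISA1 was at place 3 in WT and place 8 in the mutant at 12 h, and at places 4 and 9 at 72 h.

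In WT, YFH1, GRX5, NFS1, YAH1 and ISA2 fell at every time from 0 h, JAC1 rose at 48 h and 72 h, and ISU2 rose at 12 h and 48 h. In the mutant, YFH1 and GRX5 fell at every time, NFS1 and YAH1 at 48 h and 72 h, and ISA2 at 12 h. ISU2, JAC1 and SSQ1 rose at every time in the mutant, though each SSQ1 call was lost without any 1 of 4 libraries. ISA1 fell in the mutant at 72 h and was called at no time in WT. A gene was called where edgeR's quasi-likelihood test gave an adjusted p under 0.05 over all 6253 genes. In WT at 12 h, 6 of the 10 were called, 1 higher and 5 lower, where 47.1% of all genes tested were called, 24.6% higher and 22.4% lower. In WT at 48 h, 7 were called (2 higher, 5 lower) against 63.7% of all genes (33.7% higher, 30% lower). At 72 h the WT count was 6 (1 higher, 5 lower) against 64.5% (34.7% higher, 29.8% lower). The mutant count was 6 at 12 h (3 higher, 3 lower) against 42.4% of all genes (22.1% higher, 20.2% lower). It was 7 at 48 h (3 higher, 4 lower) against 55.3% (28.9% higher, 26.4% lower), and 8 at 72 h (3 higher, 5 lower) against 59.7% (31.6% higher, 28% lower). In the main fit the share of the 10 called lower was above that of all genes in both strains and at each time, for genes chosen with earlier results known. In the mutant at 12 h it was 3 of 10 against 20.2%, a margin that rests on 1 call. Some of these lower calls depended on the scaling. With total counts the mutant lost its calls of ISA2 at 12 h (adjusted p = 0.306, edgeR) and of NFS1 (0.873) and YAH1 (0.146) at 48 h. It also lost that of NFS1 at 72 h (0.9), and WT lost those of NFS1 at 12 h (0.508) and 48 h (0.0523). The median log2 change of the 10 was -0.23, -0.42 and -0.34 in WT at 12, 48 and 72 h, and -0.36, -0.27 and -0.18 in the mutant, beside 0.01 to 0.08 over all genes. All comparisons with 0 h within a strain share their 0 h libraries. In RNA from whole cultures, fewer cells of a kind and less RNA per cell cannot be told apart.

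**Figure D1:**
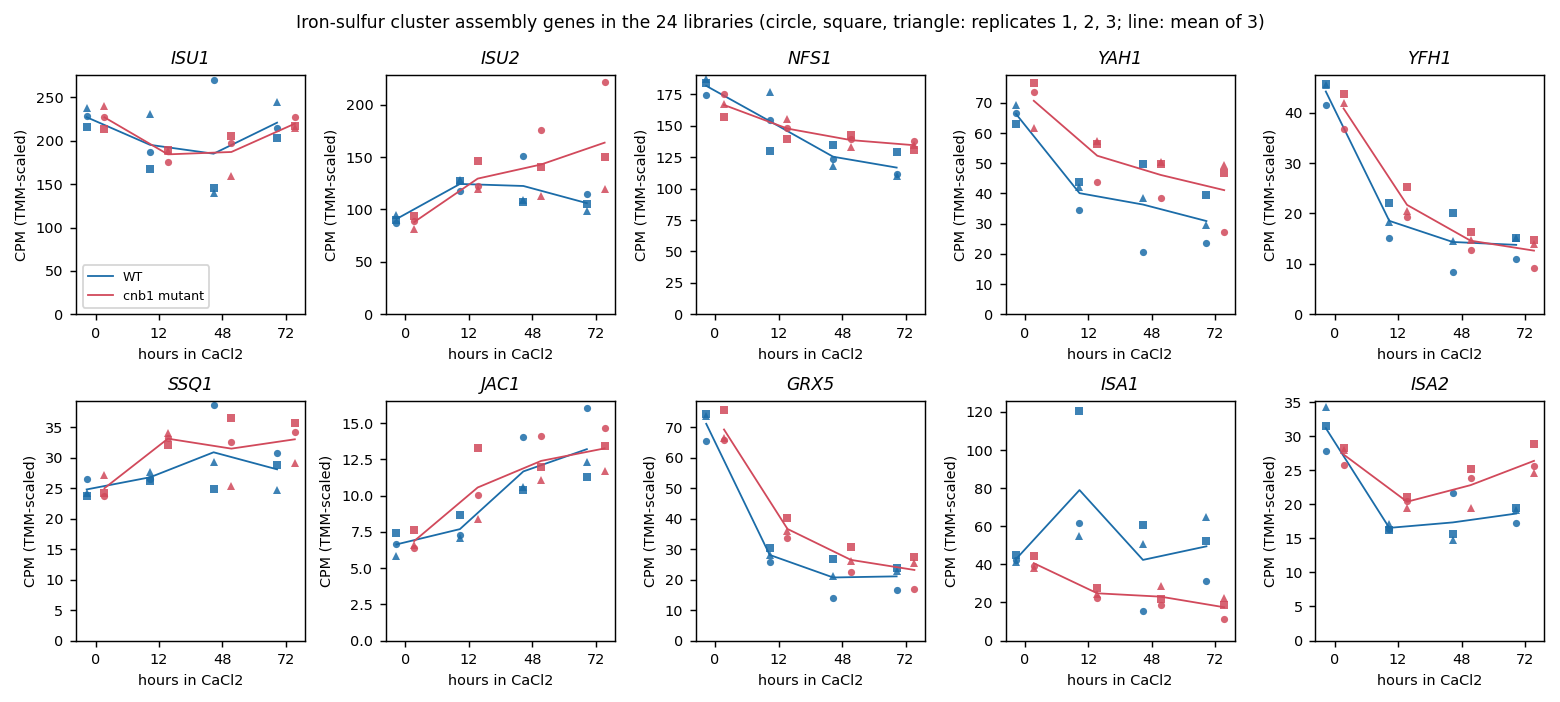
CPM (counts per library size, scaled by TMM) of the 10 genes on the vertical axes against hours in CaCl2, with 1 point per library, marker shapes for replicates 1, 2 and 3, and lines through the means of 3 libraries for WT (blue) and the cnb1 mutant (red). YFH1 and GRX5 fall in both strains, JAC1 climbs in both, and ISA1 has its highest value, 120.4 CPM, in a WT library at 12 h.

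**Figure D2:**
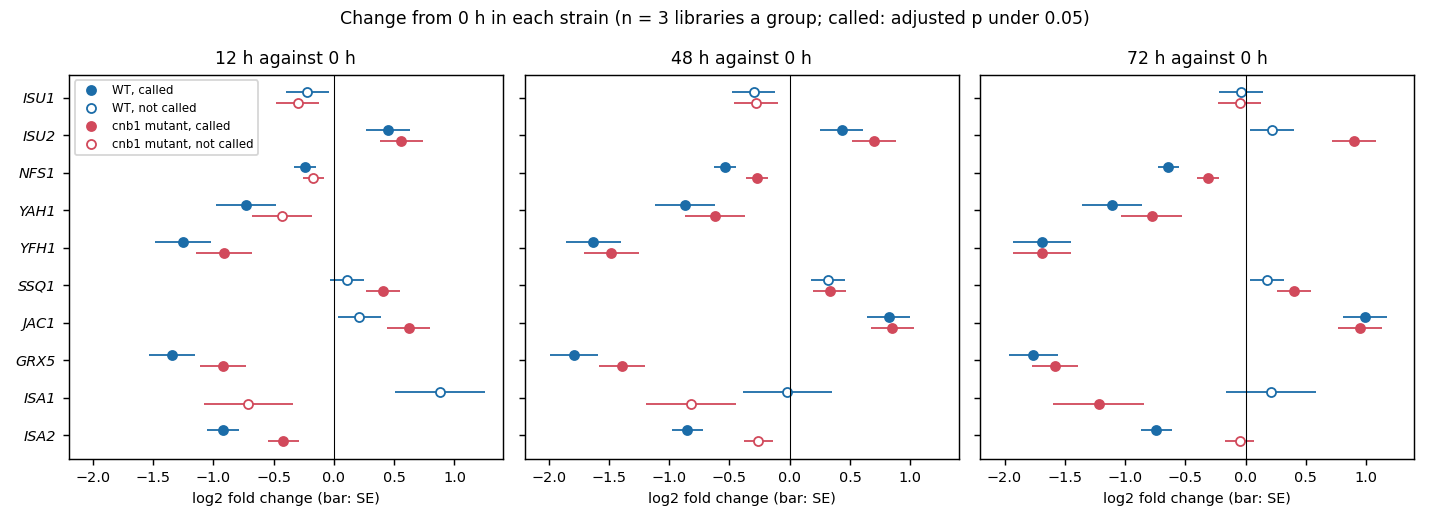
Log2 fold change from 0 h (horizontal axes, bars are SE) of the 10 genes at 12, 48 and 72 h in WT (blue) and the cnb1 mutant (red), with filled points for changes called at an adjusted p under 0.05. YFH1 and GRX5 lie farthest to the left at 48 h and 72 h in both strains, down to -1.79, and ISA1 lies on opposite sides of 0 in the strains at 12 h and 72 h.

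The scaffold pair behaved differently from each other. ISU1 (YPL135W, chrXVI:297553-298050) was not called in any of the comparisons made. In WT its values were 228.4, 215.5 and 237.7 CPM at 0 h and 186.9, 167.8 and 231.2 after 12 h. At 48 h they were 269.9, 145.8 and 139.7, and at 72 h 214.8, 203.0 and 244.9. Replicate 1 was the high library at 48 h, and without it the WT change at 48 h was -0.67 with an adjusted p of 0.000114 (edgeR), in place of -0.30 with 0.152. Without the 4 late replicate 1 libraries it was -0.65 in WT (adjusted p = 0.00019) and -0.33 in the mutant (0.0273), in place of -0.28 there (0.19). In the mutant ISU1 ranged from 159.0 CPM, at 48 h, to 239.7, at 0 h.

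ISU2 (YOR226C, chrXV:761614-762084) encodes the second scaffold protein and overlaps ISU1 in function. It rose in the mutant from 88.6, 94.1 and 81.4 CPM at 0 h to 122.1, 146.7 and 119.6 after 12 h, 175.4, 140.9 and 112.6 after 48 h, and 221.8, 150.0 and 119.6 after 72 h. In WT it went from 87.4, 90.4 and 94.9 CPM at 0 h to 117.8, 127.3 and 128.0 after 12 h, 151.1, 106.9 and 109.3 after 48 h, and 114.4, 104.8 and 99.0 after 72 h. In both strains every later library lay above every 0 h library of that strain. The mutant changes were 0.56 ± 0.18 (log2 ± SE, adjusted p = 0.0192), 0.70 ± 0.18 (0.00301) and 0.90 ± 0.18 (0.000338) by edgeR. The WT changes were 0.45 (0.0455), 0.43 (0.0433) and 0.22 (0.286). The WT call at 12 h was lost without any 1 of its 6 libraries (adjusted p 0.0613 to 0.109), and that at 48 h without WT 0 h replicate 1 (0.104) or 2 (0.0893) or 48 h replicate 1 (0.25, adjusted p 0.251). The mutant call at 12 h was lost without 0 h replicate 3 (0.0699) or 12 h replicate 2 (0.0852). The coding sequences of ISU1 and ISU2 were 70.8% identical over 462 aligned bases with no identical run longer than 12 bases.

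NFS1 (YCL017C, chrIII:92777-94270), the cysteine desulfurase that provides the sulfur, had the smallest SE of the 10 and fell in WT. Its WT values were 174.5, 184.0 and 187.0 CPM at 0 h, 154.3, 129.8 and 177.2 after 12 h, 123.6, 134.6 and 118.0 after 48 h, and 111.4, 129.0 and 109.9 after 72 h. The 48 h and 72 h libraries all lay below the 0 h libraries, while 1 library at 12 h overlapped them. The WT changes were -0.24 ± 0.09 (adjusted p = 0.0399, edgeR), -0.54 ± 0.09 (6.81e-05) and -0.64 ± 0.09 (9.21e-06). The 12 h call was lost without WT 0 h replicate 2 (0.0913) or 3 (0.132), or 12 h replicate 1 (0.0775) or 2 (-0.13, adjusted p 0.251). In the mutant the values went from 175.7, 156.9 and 167.3 CPM at 0 h to 138.1, 130.6 and 135.0 after 72 h, a change of -0.31 ± 0.09 (0.00835). The mutant change at 48 h was -0.27 (0.0219) and its call was lost without 0 h replicate 1 (0.0873) or 3 (0.051) or 48 h replicate 3 (0.0689). The falls of NFS1 depend on the scaling. With total counts in place of TMM, the median gene moved up by 0.182, 0.379 and 0.377 in WT and 0.221, 0.291 and 0.338 in the mutant, and of the NFS1 calls only that in WT at 72 h held (-0.34, adjusted p 0.00424). The other WT changes were then -0.08 at 12 h (0.508) and -0.22 at 48 h (0.0523), and the mutant changes 0.03 (0.811), -0.02 (0.873) and -0.02 (0.9).

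YFH1 (YDL120W, chrIV:245923-246447), yeast frataxin, lost most of its message in both strains. In WT it went from 41.5, 45.7 and 45.4 CPM at 0 h to 15.2, 22.1 and 18.3 after 12 h, 8.32, 20.1 and 14.6 after 48 h, and 10.9, 15.2 and 15.2 after 72 h. In the mutant it went from 36.7, 43.8 and 42.0 CPM to 19.3, 25.3 and 20.5, then 12.8, 16.3 and 14.7, then 9.17, 14.7 and 14. No later library reached the lowest 0 h library of its strain. At 72 h the change was -1.69 ± 0.24 in both strains (adjusted p = 4.72e-06 in WT and 7.68e-06 in the mutant, edgeR), a 3.22-fold fall in WT and a 3.23-fold fall in the mutant. At 12 h it was -1.25 ± 0.23 (0.000233) in WT and -0.91 ± 0.23 (0.00399) in the mutant. The strain difference of the change at 72 h was -0.01, with an interval of 2 SE on either side from -0.65 to 0.63.

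YAH1 (YPL252C, chrXVI:73363-73881), the ferredoxin that supplies electrons, fell in WT from 66.6, 63.1 and 69.3 CPM at 0 h to 34.6, 43.7 and 42.0 after 12 h, 20.7, 49.8 and 38.5 after 48 h, and 23.5, 39.5 and 29.6 after 72 h. The mutant held 73.7, 76.6 and 61.8 CPM at 0 h, 43.7, 56.3 and 57.5 after 12 h, 38.4, 49.6 and 50.4 after 48 h, and 27.3, 46.7 and 49.3 after 72 h. Replicate 1 was the lowest library at each later time in both strains. The WT changes were -0.73 ± 0.25 (adjusted p = 0.0224, edgeR), -0.87 ± 0.25 (0.00537) and -1.11 ± 0.25 (0.000809), and the mutant changes -0.43 ± 0.25 (0.169), -0.62 ± 0.25 (0.0421) and -0.78 ± 0.25 (0.0112). The mutant call at 72 h was lost without 72 h replicate 1 (-0.56, adjusted p 0.0724). That at 48 h was lost without any of 0 h replicate 1 (0.0951) or 2 (0.109) and 48 h replicates 1 (0.151), 2 (0.0618) or 3 (0.0565). The WT call at 12 h was lost without 0 h replicate 3 (0.0667) or 12 h replicate 1 (0.0851).

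JAC1 rose in both strains, with a call from 12 h in the mutant and from 48 h in WT. JAC1 (YGL018C, chrVII:459110-459664), the J-protein that brings the scaffold to Ssq1, stood at 6.67, 7.40 and 5.84 CPM in WT at 0 h, 7.32, 8.67 and 7.09 after 12 h, 14.03, 10.4 and 10.6 after 48 h, and 16.04, 11.3 and 12.3 after 72 h. Mutant libraries stood at 6.41, 7.61 and 6.59 CPM at 0 h, 10.02, 13.3 and 8.38 after 12 h, 14.1, 12.01 and 11.1 after 48 h, and 14.7, 13.4 and 11.7 after 72 h. Every 48 h and 72 h library lay above every 0 h library in both strains. JAC1 rose in WT by 0.82 ± 0.18 (log2 ± SE, adjusted p = 0.000627, edgeR) at 48 h and 0.99 ± 0.18 (8.52e-05) at 72 h, and in the mutant by 0.62 ± 0.18 (0.0099), 0.85 ± 0.18 (0.000577) and 0.95 ± 0.18 (0.000178). At 12 h the WT change was 0.21 (0.346), and the mutant call at 12 h was lost without 12 h replicate 2 (0.42, adjusted p 0.0816).

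SSQ1 (YLR369W, chrXII:859552-861525), the mitochondrial Hsp70 devoted to this pathway, changed less. In the mutant it went from 23.7, 24.2 and 27.1 CPM at 0 h to 33.2, 32.1 and 34.1 after 12 h, 32.6, 36.5 and 25.4 after 48 h, and 34.3, 35.7 and 29.1 after 72 h. The mutant changes were 0.41 ± 0.14 (adjusted p = 0.0255, edgeR), 0.33 ± 0.14 (0.049) and 0.40 ± 0.14 (0.0185). Each of these calls rests on 3 libraries a group and was lost without any 1 of 4 libraries: at 12 h without 0 h replicate 1 (0.0844) or 2 (0.0714) or 12 h replicate 1 (0.0562) or 3 (0.065), at 48 h without replicate 1 or 2 of 0 h (0.135, 0.118) or of 48 h (0.118, 0.244), and at 72 h without replicate 1 or 2 of 0 h (0.0638, 0.0547) or of 72 h (0.0537, 0.0709). The call at 48 h was also lost without the 4 late replicate 1 libraries, at 0.30 (0.0592). WT values ran from 23.7 to 38.6 CPM over the 4 times, and no WT change was called (0.11, 0.32 and 0.18). With total-count scaling the WT changes were 0.66 at 48 h (0.00464) and 0.48 at 72 h (0.029), against median shifts of all genes of 0.379 and 0.377.

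GRX5 (YPL059W, chrXVI:444579-445031), the monothiol glutaredoxin that carries the new cluster, had the largest falls in WT. There it went from 65.4, 74.4 and 73.6 CPM at 0 h to 25.9, 30.3 and 28.1 after 12 h, 14.1, 26.7 and 21.3 after 48 h, and 16.7, 23.8 and 22.7 after 72 h. Mutant libraries went from 65.7, 75.6 and 66.5 CPM to 33.7, 40.2 and 36.0, then 22.6, 30.7 and 26.1, then 16.9, 27.3 and 25.3. All later libraries lay far below the 0 h libraries. The WT changes were -1.34 ± 0.19 (adjusted p = 2e-05, edgeR), -1.79 ± 0.20 (3.71e-07) and -1.76 ± 0.20 (3.57e-07), and the mutant changes -0.92 ± 0.19 (0.000913), -1.39 ± 0.19 (1.02e-05) and -1.58 ± 0.19 (2.17e-06). Mutant libraries at 12 h lay above all WT libraries, a strain difference of 0.38 ± 0.19 that was not called (0.189).

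Of the genes that act last, ISA2 (YPR067W, chrXVI:682220-682777) fell in WT at every time and in the mutant at 12 h. WT libraries held 27.8, 31.5 and 34.2 CPM at 0 h, 16.3, 16.2 and 17.1 after 12 h, 21.7, 15.6 and 14.7 after 48 h, and 17.2, 19.5 and 19.2 after 72 h. Mutant libraries held 25.7, 28.3 and 27.9 CPM at 0 h, 20.5, 21.1 and 19.5 after 12 h, 23.8, 25.1 and 19.5 after 48 h, and 25.6, 28.9 and 24.6 after 72 h. At 72 h the mutant libraries overlapped their own 0 h libraries and the WT libraries did not. The WT changes were -0.92 ± 0.13 (adjusted p = 1.21e-05, edgeR), -0.85 ± 0.13 (1.19e-05) and -0.74 ± 0.13 (4.09e-05), and the mutant changes -0.42 ± 0.13 (0.0113), -0.26 ± 0.12 (0.0835) and -0.05 ± 0.12 (0.751). The mutant fall at 12 h was -0.22 with total-count scaling (0.306). Without the 4 late replicate 1 libraries the mutant change at 48 h was called, at -0.30 (0.0274).

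ISA1 (YLL027W, chrXII:87403-88155), whose product works with Isa2, had the largest strain differences of the 10 after 0 h. WT libraries held 42.5, 44.7 and 41.1 CPM at 0 h, 61.9, 120.4 and 54.7 after 12 h, 15.6, 60.6 and 50.8 after 48 h, and 31.5, 52.1 and 64.8 after 72 h. Mutant libraries held 39.0, 44.5 and 38.3 CPM at 0 h, 22.4, 27.8 and 24.2 after 12 h, 18.8, 21.7 and 28.6 after 48 h, and 11.4, 18.5 and 22.5 after 72 h. Every WT library at 12 h lay above, and every mutant library at 12, 48 and 72 h below, every 0 h library of its strain. In WT the changes were 0.88 ± 0.37 (adjusted p = 0.0548, edgeR), -0.02 ± 0.37 (0.97) and 0.21 ± 0.37 (0.632). With the replicate number as a block, which paired these libraries, the WT change at 12 h was 0.79 with an adjusted p of 0.00227. Without WT 12 h replicate 2, the library at 120.4 CPM, it was 0.45, while without 12 h replicate 1 it was 1.03 (0.0484) and without replicate 3 it was 1.09 (0.0315). In the mutant the changes were -0.71 ± 0.37 (0.13), -0.82 ± 0.37 (0.0691) and -1.22 ± 0.38 (0.00945). The call at 72 h was lost without 72 h replicate 1 (-0.99, adjusted p 0.0534). Without the 4 late replicate 1 libraries the mutant change at 48 h was -0.70 (0.0227). The coding sequences of ISA1 and ISA2 were 61% identical over 546 aligned bases.

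At 0 h none of the 10 genes differed by the test between the strains, where 0.032% of all genes tested were called. The differences at 0 h lay between -0.19 (ISA2) and 0.09 (YAH1) on the log2 scale, mutant minus WT. At 12 h, ISA1 was called and was 3.19-fold lower in the mutant (-1.67 ± 0.38, adjusted p = 0.00489, edgeR), 1 of 10, where 15.4% of all genes were called and 6.96% were called lower. This call held when each library of the compared groups was left out in turn. At 48 h 0 of the 10 were called against 4.89% of all genes, with ISA1 at -0.88 (0.218), and ISA2 was higher by 0.39 (0.0788). Without the 4 late replicate 1 libraries 2 were called at 48 h, ISA1 at -1.17 (0.013) and ISA2 at 0.54 (0.0127). Without WT 48 h replicate 1 alone, ISA1 stood at -1.28 (0.0138), ISA2 at 0.59 (0.00364) and ISU1 at 0.39 (0.0479).

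At 72 h 3 of the 10 were called against 9.12% of all genes, ISA1 lower (4.45% of all genes) and ISU2 and ISA2 higher (4.67%) in the mutant. The ISA1 difference was -1.50 ± 0.38 (log2 ± SE, adjusted p = 0.0155, edgeR), and the call was lost without WT 72 h replicate 3 (-1.26, adjusted p 0.0861) or mutant 72 h replicate 1 (-1.27, 0.0707) or 2 (-1.55, 0.055). ISA2 was higher by 0.50 ± 0.12 (0.0142), lost without WT 72 h replicate 1 (0.063) or mutant 72 h replicate 2 (0.0835). ISU2 was higher by 0.63 ± 0.18 (0.0328), with every mutant library above every WT library. Its call was lost without any WT 72 h library (0.0529, 0.0787 and 0.126 for replicates 1, 2 and 3) or mutant 72 h replicate 2 (0.0566), and without mutant 72 h replicate 1, at 221.8 CPM, the difference was 0.35 (0.227). The ISU2 call was also lost with total-count scaling (0.0647, edgeR), with limma on TPM (0.0923 to 0.105) and with only the compared groups in the edgeR fit (0.169). With the replicate block, which paired the 72 h libraries, YAH1 was also called, higher in the mutant by 0.41 (0.0258), in place of 0.363 as the adjusted p without it. YFH1 and JAC1 differed between the strains at 72 h by -0.12 and 0.01, with intervals of 2 SE on either side from -0.58 to 0.34 and from -0.33 to 0.35.

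**Figure D3:**
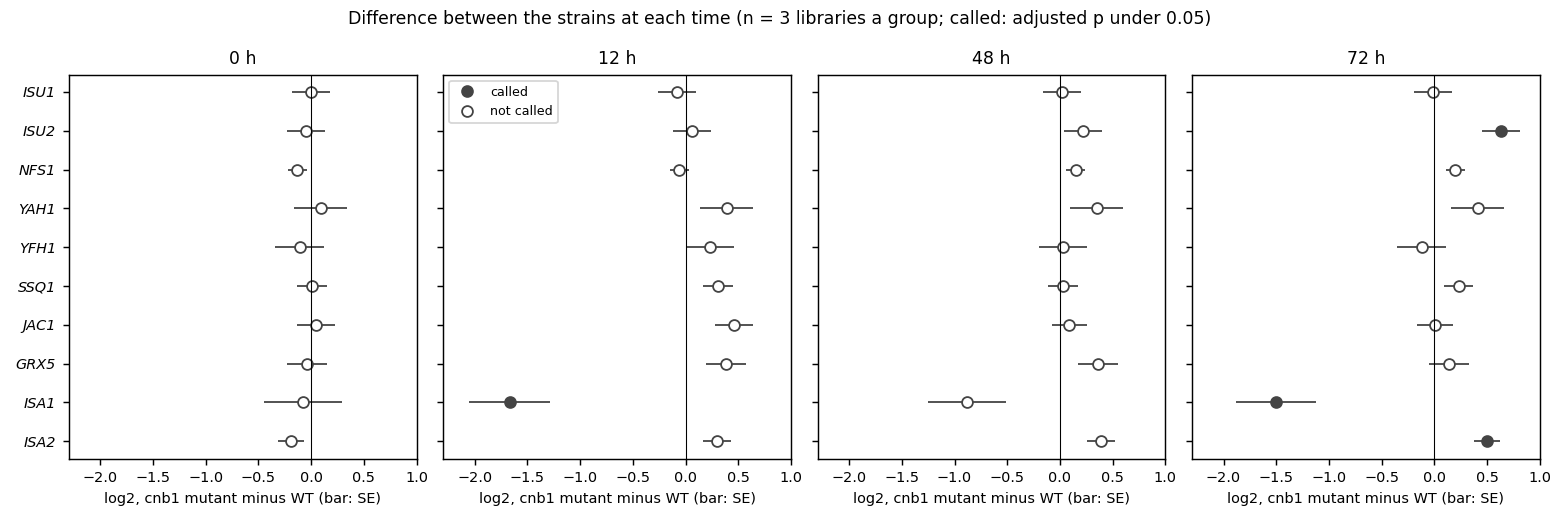
Log2 difference between the cnb1 mutant and WT (horizontal axes, bars are SE, 3 libraries a group) for the 10 genes at 0, 12, 48 and 72 h, with filled points for differences called at an adjusted p under 0.05. All points lie near 0 at 0 h, ISA1 lies at -1.67 after 12 h and -1.50 after 72 h, and ISU2 and ISA2 are the filled points on the right at 72 h.

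The change from 0 h was also compared between the strains directly, as the mutant change minus the WT change. None of the 10 passed this test with an adjusted p under 0.05 in edgeR, where 1.82%, 0.192% and 1.04% of all genes were called at 12, 48 and 72 h. The values were largest for ISA1, at -1.60 ± 0.52 (adjusted p = 0.137), -0.80 ± 0.52 (0.737) and -1.43 ± 0.53 (0.235), and for ISA2, at 0.49 ± 0.18 (0.184), 0.59 ± 0.18 (0.227) and 0.69 ± 0.18 (0.0622). At 72 h the replicate numbers paired the strains at both 0 h and 72 h, and with the replicate block 3 were called, ISA1 at -1.41 (6.52e-06), ISU2 at 0.64 (0.0182) and ISA2 at 0.70 (0.00323), while the count over all genes went from 65 to 676. Without the 4 late replicate 1 libraries 2 were called at 72 h, ISA1 at -1.44 (0.0292) and ISA2 at 0.65 (0.0281). Leaving out WT 0 h replicate 1 gave ISA2 at 0.77 at 72 h (0.0446), and leaving out WT 48 h replicate 1 gave it 0.78 at 48 h (0.025).

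In the test of 72 h against 12 h in CaCl2, the share of the 10 that was called lay near that of all genes. In WT, JAC1 rose by 0.78 ± 0.18 (log2 ± SE, adjusted p = 0.00689, edgeR) and NFS1 changed by -0.40 ± 0.09 (0.00829), 2 of 10 where 23.2% of all genes were called (12.2% higher, 11% lower). The NFS1 call was lost without WT 12 h replicate 3 (-0.28, adjusted p 0.0567) and with total-count scaling (-0.26, 0.0566). In the mutant, YFH1 at -0.78 (0.0253), GRX5 at -0.66 (0.0224) and ISA2 at 0.38 (0.0405) were called, 3 of 10 where 20.3% of all genes were called (10% higher, 10.3% lower). The YFH1 and GRX5 calls were lost without mutant 12 h replicate 2 (0.0845 and 0.0661) or 3 (0.0595 and 0.061) or 72 h replicate 1 (0.129 and 0.124). The ISA2 call was lost without any 12 h library (0.0957, 0.0616 and 0.131 for replicates 1, 2 and 3) or 72 h replicate 1 (0.0815) or 2 (0.132). ISU2 was called without mutant 72 h replicate 3, at 0.52 (0.0447).

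The late replicate 1 libraries, high in general stress genes, also differed in these genes. Replicate 1 minus the mean of replicates 2 and 3, in log2 CPM, was below 0 in all 4 late groups for ISA1 (-1.82 and -0.88 in WT in time order, -0.40 and -0.83 in the mutant). YAH1 (-1.08 and -0.54, then -0.38 and -0.81), YFH1 (-1.04 and -0.48, then -0.27 and -0.64) and GRX5 (-0.76 and -0.47, then -0.33 and -0.63) were below 0 in all 4 too. ISU2 was above 0 in all 4 (0.48 and 0.17, then 0.48 and 0.73), as were JAC1 (0.23 to 0.45) and SSQ1 (0.09 to 0.52). NFS1 lay between -0.10 and 0.06. ISA2, which fell in WT, was at 0.52 and -0.16 in WT and 0.10 and -0.06 in the mutant, and ISU1 was at 0.92 and -0.05, then 0.13 and 0.07. The part of the stress state in these differences was not tested.

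By the correlation of log2 CPM over the 24 libraries, the 5210 named genes compared held different nearest neighbours for each of the 10. Such a correlation covers libraries that share strain, time and treatment and is a description. GRX5 was most like CCP1 (r = 0.993), which encodes cytochrome c peroxidase, and QCR7 (0.989) and QCR2 (0.986), which encode subunits of respiratory complex III. YFH1 was most like GRX5 itself (0.983), ILV3 (0.982), an iron-sulfur enzyme of branched-chain amino acid synthesis, and CBP3 (0.982), which acts in complex III assembly. The promoters of GRX5 and YFH1 shown above share neither a CACCC nor a CCAAT. YAH1 was most like the amino acid synthesis genes HOM3 (0.966), ARO4 (0.953) and HIS1 (0.953). ISA1 was most like CYB5 (0.961), encoding cytochrome b5, ERG1 (0.942), encoding squalene epoxidase of sterol synthesis, and CCC1 (0.935), encoding the transporter that stores iron in the vacuole. For the other members the highest r ran from 0.874 (ISU1 with FOX2) to 0.961 (JAC1 with CWC24), with NFS1 and CHC1 at 0.946, ISA2 and IRC18 at 0.93, SSQ1 and GLC8 at 0.911, and ISU2 and MSB3 at 0.906.

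TIS11, whose product binds the AU-rich element shown for ISA1, ran opposite to ISA1 in the libraries at the ends of the TIS11 range, but not within every group. In the mutant at 12 h, replicate 2 had the most of both, with ISA1 at 27.8 CPM. In the mutant at 48 h, replicate 2 had more of both than replicate 1, with ISA1 at 21.7 against 18.8 CPM. In WT, TIS11 stood at 91.8, 51.9 and 92.5 CPM at 0 h, 45.2, 13.3 and 45.1 after 12 h, 285.3, 41.8 and 63.1 after 48 h, and 90.9, 76.0 and 57.4 after 72 h. Mutant libraries had 88.3, 72.9 and 86.2 CPM at 0 h, 187.3, 211.4 and 193.5 after 12 h, 245.0, 259.2 and 113.7 after 48 h, and 343.4, 293.3 and 158.2 after 72 h. The library with the least TIS11, WT 12 h replicate 2, had the most ISA1, and the library with the most TIS11, mutant 72 h replicate 1, had the least ISA1. WT 48 h replicate 1, the WT library with the most TIS11, had the least ISA1 of any WT library. These libraries also lay at the ends in general stress genes. The mean log2 CPM of those genes was lowest in WT 12 h replicate 2 (4.08) and highest in WT 48 h replicate 1 (6.52) and mutant 72 h replicate 1 (6.24). TIS11 was higher in the mutant at 12 h by 2.52 ± 0.56 (log2 ± SE, adjusted p = 0.00449, edgeR) and at 72 h by 1.82 ± 0.54 (0.0397), where the call was lost without WT 72 h replicate 1 (0.069), 2 (0.0904) or 3 (0.158) or mutant 72 h replicate 1 (0.111) or 2 (0.105). The strain difference of its change was 2.45 at 12 h (0.113) and 1.76 at 72 h (0.332, or 1.68 with 6.03e-05 under the replicate block). At 48 h TIS11 differed by 0.66 (0.602), by 1.97 without WT 48 h replicate 1 (0.0103), and by 1.81 without the 4 late replicate 1 libraries (0.0222). GRX5, YFH1 and YAH1, which hold the shorter element in the same window, fell in WT at 12 h, where TIS11 stood lower than at 0 h. Within the WT 12 h group they were highest in replicate 2, which had the least TIS11. They had their lowest WT values in WT 48 h replicate 1 and their lowest mutant values in mutant 72 h replicate 1, the libraries of each strain with the most TIS11. Within the mutant groups at 12 h and 48 h the order was otherwise. Replicate 2 had the most TIS11 of each, and also the most YFH1 (25.3 and 16.3 CPM) and GRX5 (40.2 and 30.7 CPM). YAH1 was highest in replicate 3 of both groups (57.5 and 50.4 CPM). SSQ1, which also holds the shorter element, had its highest WT value, 38.6 CPM, in WT 48 h replicate 1. Whether TIS11 or the stress state has a part in the levels of these genes was not tested.

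**Figure D4:**
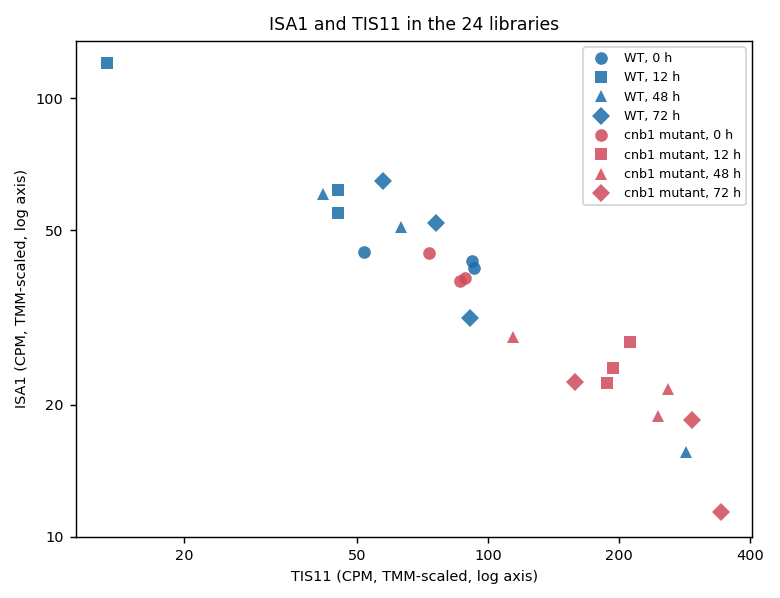
ISA1 (vertical, CPM scaled by TMM, log axis) against TIS11 (horizontal, same unit, log axis) in the 24 libraries, coloured by strain (WT blue, cnb1 mutant red) and shaped by time. The points run from the WT 12 h library with 13.3 CPM of TIS11 and 120.4 of ISA1 down to the mutant 72 h library with 343.4 of TIS11 and 11.4 of ISA1. These libraries were also low and high in general stress genes (mean log2 CPM 4.08 and 6.24).

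Other genes around the pathway set these changes in context. Of 14 tested genes of the same mitochondrial machinery or of iron import into the organelle, 1 rose and 7 fell in WT after 12 h. The counts were 1 and 7 after 48 h, and 2 and 8 after 72 h, and in the mutant 1 and 3, 3 and 4, and 3 and 4. Of all genes, 24.6%, 33.7% and 34.7% rose and 22.4%, 30% and 29.8% fell in WT. In the mutant 22.1%, 28.9% and 31.6% rose and 20.2%, 26.4% and 28% fell, so there the share of the 14 that fell was near that of all genes. ATM1, the exporter that hands the pathway's product to the cytosol, rose in all 6 comparisons (0.62 in WT and 0.89 in the mutant at 12 h). ISD11, the partner of Nfs1, changed by -0.47 in WT at 72 h, and ACP1, the acyl carrier protein bound to that complex, changed by -1.10 there, both called. NFU1, which delivers clusters to target enzymes, stood at -0.72 in WT and -0.82 in the mutant at 72 h, both called. At 72 h 4 of the 14 were higher in the mutant than in WT and 0 lower, where 4.67% of all genes were called higher and 4.45% lower. Among these 4 were IBA57, which acts with Isa1 and Isa2 (0.66), and the iron carrier gene MRS4 (1.35).

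The cytosolic branch, which depends on the mitochondrial one, showed no common direction. Of its 12 tested genes, 4 rose and 1 fell in WT at 12 h and 4 rose and 3 fell at 72 h. In the mutant 4 rose and 2 fell, then 4 rose and 3 fell. Of all genes, 24.6% rose and 22.4% fell in WT at 12 h, and 34.7% and 29.8% at 72 h. In the mutant 22.1% of all genes rose and 20.2% fell, then 31.6% and 28%. GRX4, which carries the iron signal to Aft1, differed between the strains at 12 h, mutant minus WT, by -1.67 (adjusted p = 0.00465, edgeR), and its call was lost without WT 12 h replicate 2 (-0.97, 0.051).

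Among 19 genes of proteins that hold iron-sulfur clusters, 9 fell and 3 rose in WT at 12 h (median -0.68), where 22.4% of all genes were called lower. In WT at 72 h 12 fell and 3 rose (median -0.99), against 29.8% of all genes called lower. In the mutant 12 fell and 1 rose at 12 h (-0.86) against 20.2%, and 14 fell and 3 rose at 72 h (-1.54) against 28%. At 72 h in WT the falls were -4.52 for LEU1, of leucine synthesis, -3.29 for SDH2, the iron-sulfur subunit of succinate dehydrogenase, -3.03 for RIP1, the Rieske protein of complex III, and -0.92 for ACO1, aconitase. Of 22 genes of the iron regulon, 12 rose and 3 fell in WT at 12 h and 16 rose and 3 fell at 72 h, where 24.6% and 34.7% of all genes were called higher. In the mutant 14 rose and 1 fell at 12 h and 18 rose and 2 fell at 72 h, against 22.1% and 31.6%, with FIT3, a cell wall protein of siderophore uptake, at 5.35 in WT and 4.85 in the mutant at 72 h. None of the 10 stands in these lists, and MRS4 stands in both the list of iron import and that of the iron regulon. SSC1 and MGE1 stand both in the list of mitochondrial machinery and in that of the mitochondrial Hsp70 system below, so those lists are not separate sets.

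Among 7 other genes of the mitochondrial Hsp70 system, to which Ssq1 is related, 1 rose and 2 fell in WT at 12 h and at 72 h. In the mutant 2 and 4 rose at these times with 0 falls. Of all genes, 24.6% and 34.7% rose and 22.4% and 29.8% fell in WT at these times. In the mutant 22.1% and 31.6% of all genes rose and 20.2% and 28% fell. TIM44, which anchors the import motor, rose in both strains (0.68 in WT and 0.69 in the mutant at 72 h). SSC1, the general mitochondrial Hsp70, changed by -0.69 in WT at 72 h (called) and -0.07 in the mutant (not called), and was higher in the mutant than in WT at 72 h by 0.62 (adjusted p = 0.0402, edgeR).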

How the data were processed

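RNA of 24 yeast libraries was measured after polyA enrichment, per the labels' protocols. The tools featureCounts and DESeq2 and build R64 are named by the submitters' processing notes. The aligner, the strand setting and how reads with several matches were counted are not stated in the labels or files used here. The authors deposited raw counts per gene (whole numbers, 7126 genes) and TPM (6744 genes). Columns were matched to samples by title, and a table's gene symbols picked the members. The members and all gene lists were chosen with earlier results of these data known, and every member was named in each comparison. Of the lists, any gene could be named.

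The deposited counts were filtered with filterByExpr by group (6253 genes), scaled by TMM and tested with edgeR 4.0.16 (R 4.3.3), quasi-likelihood, in 1 model of 8 groups with 16 residual degrees of freedom. Calls were made at a Benjamini-Hochberg adjusted p under 0.05 within each of 15 comparisons, two-sided. The SE is approximate. The deposited TPM served the order of levels and alternatives (limma 3.58.1). DESeq2 1.42.0, 2 other scalings, 2 filters and leaving out libraries were also tried. The edgeR test was checked on simulated counts for 1 comparison, WT at 12 h against 0 h, and the other steps were not checked in this way. Genes most like a member were the 3 named genes with the highest Pearson r of log2 CPM (prior count of 2). Sequences were read from R64 by the positions in its annotation.

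Same-numbered replicates were taken as paired where all 3 correlations of their deviations from the group means were over 0.1. The rule was met by WT 12 h with 0 h (correlations 0.228 to 0.396), by the strains at 0 h (from 0.193 to 0.229), by the strains at 48 h (from 0.162 to 0.569) and by the strains at 72 h (from 0.314 to 0.689).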

Additional observations from a re-analysis of the deposited data

Results flagged for a closer look

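The ISA1 libraries at 12 h lay on opposite sides of their 0 h means in the strains. Each of the 3 WT libraries at 12 h lay above the WT mean at 0 h, and each of the 3 mutant libraries lay below the mutant mean at 0 h. Neither change was itself called in the main fit of all 8 groups, at 0.88 in WT (adjusted p = 0.0548, edgeR) and -0.71 in the mutant (0.13). With only the compared groups in the fit both were called, at 0.88 in WT (0.0171) and -0.72 in the mutant (0.000486). With DESeq2 (0.0376) or with total-count scaling in edgeR (0.0151), only the WT change was called. The mutant change minus the WT change was -1.60 on the log2 scale, and the test of this difference did not pass (adjusted p = 0.137, edgeR over all 8 groups). It passed with only the compared groups in the fit (-1.61, adjusted p 0.00791) and with the replicate block added to that fit (-1.53, 0.000819), though the replicate numbers did not pair the strains at 12 h. The cause was not tested.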

How the results depend on the processing

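No value of the 150 tests of a single gene reversed to a called change in the other direction, and 53 of them changed their call under at least 1 setting. The YFH1 and GRX5 calls against 0 h held under every setting tried. The cause of the other changes was not tested, except that fewer libraries leave fewer degrees of freedom.

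Leaving out 1 library at a time gave, of the 10 genes, 3 to 6 called in WT at 12 h (6 with all), 4 to 6 in the mutant at 48 h (7), 5 to 8 in the mutant at 72 h (8), 1 to 2 between strains at 12 h (1), 0 to 3 at 48 h (0) and 0 to 3 at 72 h (3). It gave 0 to 1 for the strain difference of the change at 48 h and at 72 h (0 each), 1 to 2 for WT 72 h against 12 h (2) and 0 to 4 for the mutant (3). Without the 4 late replicate 1 libraries, 2 were called between strains at 48 h and 2 for the strain difference of the change at 72 h.

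With only the compared groups in the fit, 4 were called between strains at 12 h and 1 at 72 h, 2 for the strain difference at 12 h, 1 at 72 h, and 1 for WT 72 h against 12 h. With the replicate block added, the counts were 10 in the mutant at 12 h, 6 between strains at 12 h, 4 and 3 for the strain difference at 12 h and 72 h, and 1 for WT 72 h against 12 h. At 12 h the numbers did not pair the mutant's libraries or the strains by the rule used. RLE size factors and DESeq2 each gave 1 for the strain difference at 72 h. Total-count scaling and limma on TPM (pseudocounts 1 and 0.1, and all genes) each gave 1 for WT 72 h against 12 h.

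Over all genes, the block gave 4172 calls in place of 2649 in the mutant at 12 h, and between strains 138 in place of 2 at 0 h, 1654 in place of 962 at 12 h, 68 in place of 306 at 48 h and 1108 in place of 570 at 72 h. For the strain difference it gave 855 in place of 114, 24 in place of 12 and 676 in place of 65, and 844 in place of 1451 for WT 72 h against 12 h. The compared groups alone gave 13, 5 and 184 between strains at 0, 48 and 72 h, 527 for the strain difference at 12 h, and 834 for WT 72 h against 12 h. DESeq2 gave 231, 40 and 140 for the strain difference, total counts 37 and limma 39 at 72 h. A stricter filter or limma gave 1 at 0 h. Without the late replicate 1 libraries the counts were 522 between strains at 48 h and 26 and 192 for the strain difference. With 3 libraries a group, the ISA1 change in WT at 12 h of 0.88 (SE 0.37) and its strain differences of the change at 12 h and 72 h of -1.60 and -1.43 (SE 0.52 and 0.53) were not called.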
